A study of Mus musculus with 85 samples.

Results

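Mouse morulae grown without pyruvate with KY-PYR-9, named in the labels as a MYC inhibitor, were compared with morulae grown without pyruvate alone. The comparison takes 4 libraries of the first kind and 5 of the second, 9 of the 85 in the series, chosen by their titles. Each library was RNA of wild-type B6C3F1/J embryos made with Smart-seq2, which copies polyadenylated RNA into cDNA and amplifies it before sequencing. All 9 were collected 78 h after hCG, the hormone injection that times ovulation. The standard medium, KSOM, holds glucose, pyruvate and lactate. Pyruvate was left out for both groups, with glucose and lactate kept, and the inhibitor was present at 20 nM in 1 of them. They are called inhibitor morulae and no-pyruvate morulae here. As a frame, values are also given for 6 standard morulae and 5 morulae without lactate, also at 78 h, and for 3 early 8-cell (66 h), 5 early 16-cell (80 h) and 4 early 32-cell (90 h) libraries of embryos in standard medium, all of the same strain. No group had the inhibitor in standard medium, so an effect of the compound apart from pyruvate withdrawal cannot be separated, and no vehicle is named for the no-pyruvate morulae. The labels do not say how many embryos or separate cultures went into a library, so the p-values reflect spread among libraries, which may be technical.

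MYC is a basic helix-loop-helix leucine zipper protein that binds DNA as a dimer with MAX, preferring the E-box CACGTG. MAX also pairs with MXD proteins, MNT and MGA, which repress or compete at the same sites, and a parallel branch pairs MLX with the glucose-responsive MLXIP and MLXIPL. MYC is known for raising transcription of genes for ribosome assembly, translation, nucleotide synthesis and glycolysis. The mouse embryo takes up pyruvate as its main fuel in the first cleavages, and glucose becomes more important towards the blastocyst.

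The inhibitor libraries differed from the no-pyruvate libraries in makeup, and this touches every result that follows. Values are CPM, read counts scaled by the authors to a common total per library, so a rise in some genes lowers the rest. The 100 highest genes of a library held 34.6 to 37.6% of all values with the inhibitor and 21.1 to 23.8% without it (difference of means 14.6 percentage points, exact two-sided permutation test p = 0.016, the smallest that 4 against 5 libraries allow). From 11688 to 11964 genes lay above 1 CPM with the inhibitor and 14087 to 14997 without it. Annotated pseudogenes held 15.2 to 15.9% against 8.66 to 10.8%, and genes annotated as ribosomal RNA 0.692 to 1.26% against at most 0.00416%. Early 16-cell libraries lay near the inhibitor libraries in these measures, with 32 to 33.7% in the 100 highest genes, 11880 to 12475 genes above 1 CPM and 14.7 to 15.4% in pseudogenes. Depth, inferred from the step between low values, was 15.9 to 21.6 M reads with the inhibitor and 34 to 38 M without it. The no-pyruvate libraries themselves split, with 1 to 3 apart from 4 and 5 on a principal component. The part of library makeup in the results was not tested. Summed markers of cumulus cells were 1.34 to 1.87 CPM with the inhibitor and 2.9 to 5.45 CPM without it, those of sperm 0.185 to 0.404 and 0.147 to 0.781 CPM, and those of blood 5.67 to 9.84 and 5.67 to 18.9 CPM. Of these lists, 6, 4 and 2 members were at 0 in every inhibitor library.

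**Figure D1:**
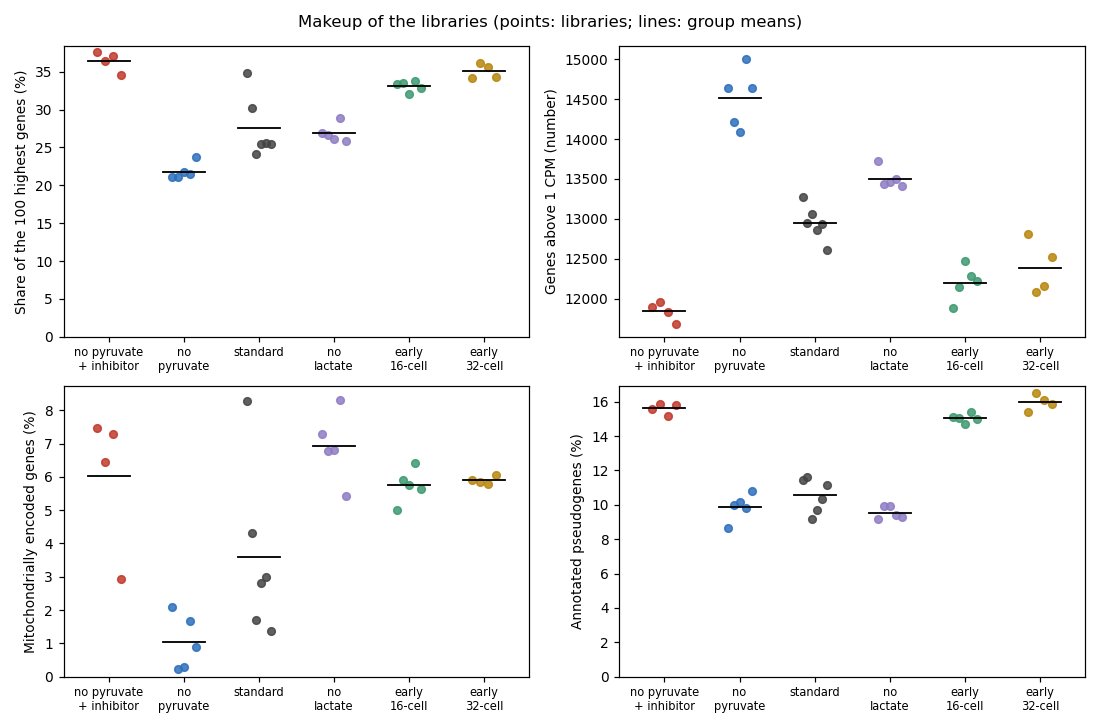
Makeup of each library by group: share of all values in the 100 highest genes, number of genes above 1 CPM, share of mitochondrially encoded genes and share of annotated pseudogenes, with points for libraries and lines for group means. The 4 inhibitor libraries lie above all 5 no-pyruvate libraries in the panels for the 100 highest genes, mitochondrially encoded genes and pseudogenes, and below them in the number of genes.

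Most genes had a lower CPM with the inhibitor, and how many depends on the scaling. As deposited, 12138 of 16031 genes passed the threshold (75.7%, limma on log2(CPM + 1), Benjamini-Hochberg adjusted p below 0.05), 1380 higher (8.61%) and 10758 lower (67.1%). The median log2 change of all genes was -0.90. Median-ratio scaling, which divides a library by its median ratio to the average library, brought that median to -0.14, with 3786 genes higher (23.6%) and 4129 lower (25.8%). Quantile scaling, which gives every library the same distribution of values, called 44.0% of genes (20.2% higher, 23.8% lower), and removal of a trend with gene length 45.9% (22.1% higher, 23.8% lower). Higher genes were 11.4% of the calls as deposited, 47.8% after median-ratio scaling, 46.0% after quantile scaling and 48.2% after removal of a trend with gene length. Under all 4 scalings 1323 genes rose (8.25%) and 2722 fell (17.0%). In what follows "rose" and "fell" refer to the deposited CPM, a list's counts are given under median-ratio scaling as well, and a gene is said to hold under all scalings where it is among those 1323 or 2722. Among the 12350 protein-coding genes tested, 4.82% rose and 74.1% fell, with a median log2 change of -1.03 (-0.23 after median-ratio scaling). Of 1843 processed pseudogenes 20.1% rose and 47.4% fell. Counts of a list are to be read against the shares of all genes and of protein-coding genes just given. Without no-pyruvate libraries 4 and 5, 1429 genes were higher and 9737 lower, and without 1 to 3, 1172 and 9238.

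**Figure D2:**
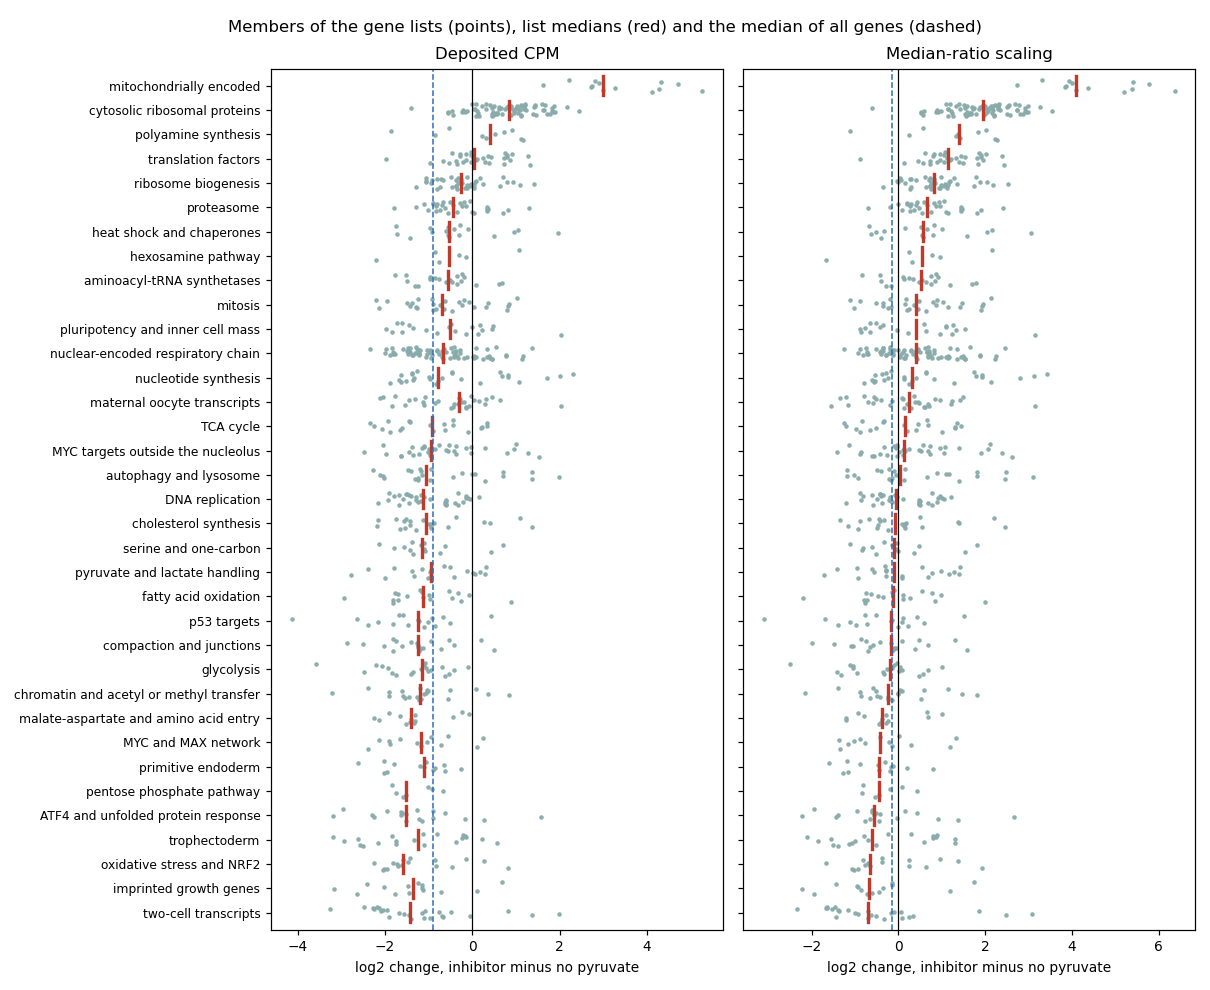
Log2 change (inhibitor minus no pyruvate, log2(CPM + 1) scale) of the tested members of each gene list, as deposited on the left and after median-ratio scaling on the right. Points are genes, red bars list medians, and the dashed line is the median of all genes at -0.90 and -0.14. Mitochondrially encoded and ribosomal protein genes have the highest list medians in both panels.

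In the MYC and MAX network, RNA of MAX, the obligate partner of MYC, fell, and Myc RNA did not pass the test as deposited. Max stood at 8.89, 7.51, 9.43 and 9.53 CPM in the 4 inhibitor libraries and at 53.6, 72.2, 84.1, 29 and 33.1 CPM in the 5 no-pyruvate libraries (log2 change -2.38 ± 0.25 (SE), limma adjusted p = 5.1e-08). Every inhibitor library was below every no-pyruvate library, and within the latter, libraries 1 to 3 were higher than 4 and 5. Max was at 28.7 CPM in standard morulae, 15 without lactate, 8.8 at the early 16-cell stage and 6.89 at the early 32-cell stage. The fall held under all scalings (-1.34 after median-ratio scaling). Myc stood at 39.3, 49.5, 44.4 and 35.1 CPM in the 4 inhibitor libraries and at 36.3, 53.2, 40.4, 27.4 and 25.6 CPM in the 5 no-pyruvate libraries (log2 change 0.24 ± 0.38 (SE), limma adjusted p = 0.57). The groups overlapped, and after median-ratio scaling the change was 1.32 (adjusted p = 0.0038), so the call for Myc rests on the scaling. Without no-pyruvate libraries 4 and 5, the change as deposited was -0.03. Myc was at 46.3 CPM in standard morulae, 123 without lactate, 27.3 at the early 16-cell stage and 6.35 at the early 32-cell stage. Max lies on chromosome 12, 76937269 to 76962201, and Myc on chromosome 15, 61985391 to 61990374 (GRCm38, GENCODE vM21).

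Most of the other members fell as deposited, as did 67.1% of all genes and 74.1% of protein-coding genes. The counts shrank under the other scalings. Of 13 network genes tested, 0 rose, 10 fell and 3 did not pass (median log2 change -1.18), and after median-ratio scaling 2 rose and 6 fell (median -0.42). Quantile scaling and removal of the length trend each gave 2 rises and 5 falls. Levels here and below are means ± SD over the 4 inhibitor and 5 no-pyruvate libraries. The level of Mxd4, a MAX-dependent repressor, fell from 9.35 ± 1.78 to 1.33 ± 0.395 CPM. Mxd3, another of this family, was lower, with 2.31 ± 0.349 CPM against 11.5 ± 1.3. Mxi1, a further repressor, fell to 1.29 ± 0.353 CPM from 6.28 ± 1.37. The level of Mlxipl, which encodes the glucose-responsive factor ChREBP, fell from 6.48 ± 0.689 to 1.04 ± 0.399 CPM. These 4 falls held under all scalings. Mnt, a MAX partner that represses, was lower, with 0.41 ± 0.139 CPM against 2.43 ± 0.63. Mlx, the partner of the glucose-responsive branch, fell to 8.11 ± 1.32 CPM from 20 ± 5.12. The level of Mxd1, a MAX-dependent repressor, fell from 5.05 ± 1.83 to 1.9 ± 0.544 CPM. Mycl, a MYC family member, was lower, with 0.569 ± 0.265 CPM against 2.18 ± 1.16. Each of the latter 4 lost the call under at least 1 other scaling. Mlxip, a glucose-responsive partner of MLX, fell to 7.15 ± 1.85 CPM from 13.3 ± 6.22. Its call was lost without any 1 of 5 libraries (no-pyruvate 1, 2 or 3, inhibitor 3 or 4), with log2 changes of -0.54 to -0.70. Mycn, a MYC family member, had 0.902 ± 0.504 CPM with the inhibitor and 1.77 ± 0.422 CPM without it and did not pass. Mga, the large MAX partner found in Polycomb complexes, had 31.4 ± 4.1 CPM with the inhibitor and 30.1 ± 9.85 CPM without it and did not pass. After median-ratio scaling Mga and Myc were the 2 members that rose (Mga 1.18, adjusted p = 0.00088).

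**Figure D3:**
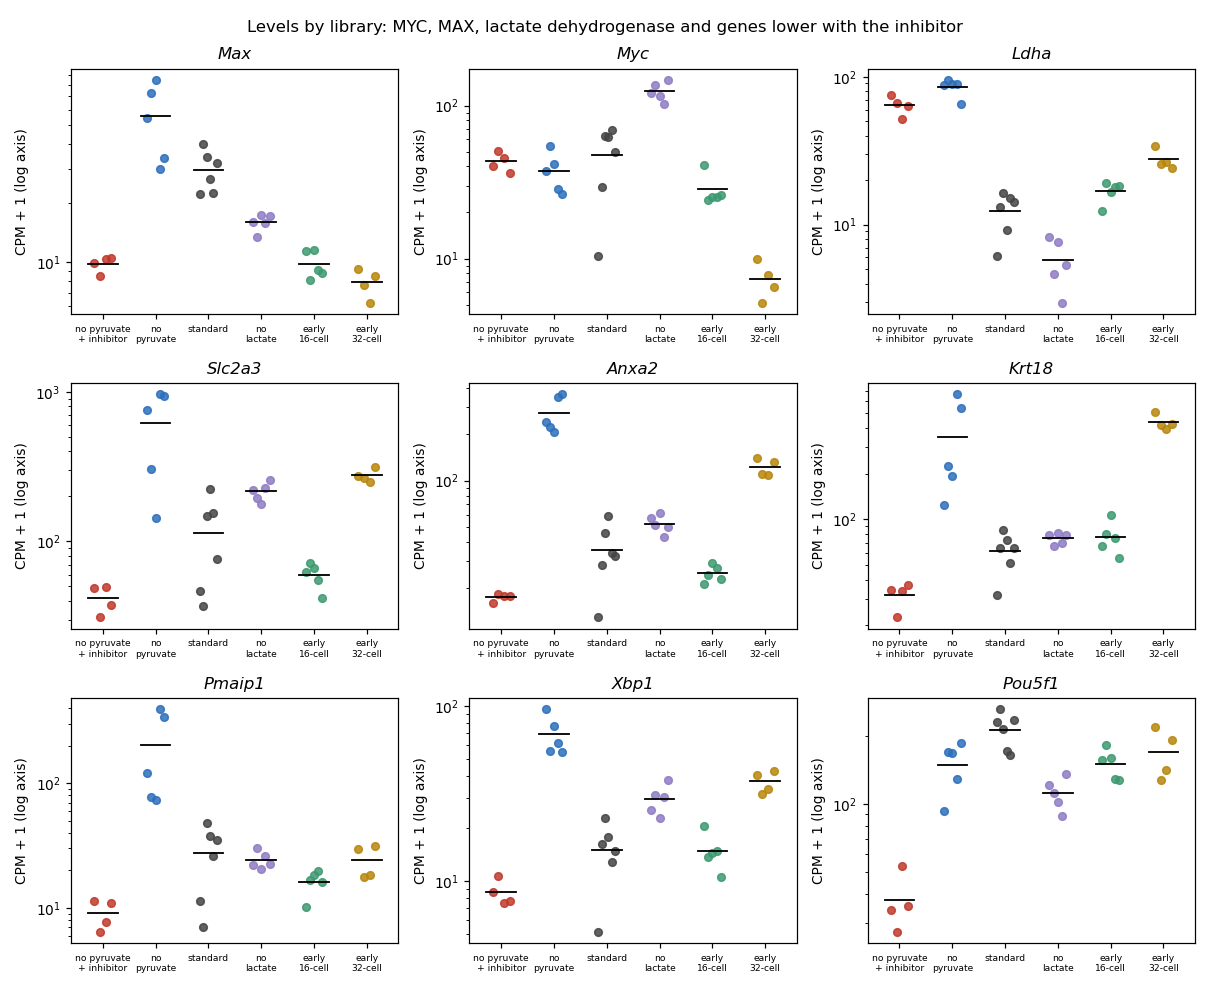
CPM + 1 on a log axis for Max, Myc, Ldha and 6 genes that fell with the inhibitor, with points for libraries and lines for group means. For all but Myc and Ldha, the 4 inhibitor libraries lie below the 5 no-pyruvate libraries.

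The E-box was then looked for in promoters, taken from RefSeq (GRCm38.p6) as 250 bases before to 50 after a start site. The motif searched was CACGTG, which reads the same on both strands, and a gene counted if any of its start sites held it. It was found for 1211 of 10301 (11.8%) of the tested genes with a promoter in the table. Among genes that rose as deposited it was found for 53 of 518 (10.2%) and among those that fell for 888 of 7618 (11.7%). After median-ratio scaling the shares were 288 of 1935 (14.9%) and 294 of 2955 (9.95%), and among genes that held under all scalings 49 of 488 (10%) and 193 of 1967 (9.81%). The order of the shares thus differed between scalings. The median log2 change of genes with the motif was -0.96 and of those without it -1.02 as deposited, and -0.13 and -0.24 after median-ratio scaling. In the lists the motif was found for 5 of 12 (41.7%) of the network genes, 11 of 29 (37.9%) of MYC targets outside the nucleolus, 9 of 35 (25.7%) of ribosome biogenesis genes and 6 of 58 (10.3%) of ribosomal protein genes. These matches are descriptions of the sequence.

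The 250 bases before the start site of 3 genes with the motif are shown because they went different ways: Mxd4, which fell, Eif4a1, which rose, and Ldha, which did not pass as deposited. Each reads 5′ to 3′ towards the start site, with CACGTG in capitals. They lie at chr5:34187711-34187960, minus strand (Mxd4), chr11:69672424-69672673, minus strand (Eif4a1) and chr7:46845554-46845803, plus strand (Ldha), all in GRCm38.
Mxd4: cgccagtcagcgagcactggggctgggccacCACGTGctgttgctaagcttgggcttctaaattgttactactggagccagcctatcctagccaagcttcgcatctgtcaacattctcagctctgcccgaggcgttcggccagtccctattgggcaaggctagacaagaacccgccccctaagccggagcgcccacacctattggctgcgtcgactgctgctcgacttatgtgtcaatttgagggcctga
Eif4a1: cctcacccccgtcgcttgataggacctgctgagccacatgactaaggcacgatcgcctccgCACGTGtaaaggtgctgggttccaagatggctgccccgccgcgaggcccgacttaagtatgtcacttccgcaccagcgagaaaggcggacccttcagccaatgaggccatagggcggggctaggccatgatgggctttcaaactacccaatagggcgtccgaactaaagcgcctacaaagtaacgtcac
Ldha: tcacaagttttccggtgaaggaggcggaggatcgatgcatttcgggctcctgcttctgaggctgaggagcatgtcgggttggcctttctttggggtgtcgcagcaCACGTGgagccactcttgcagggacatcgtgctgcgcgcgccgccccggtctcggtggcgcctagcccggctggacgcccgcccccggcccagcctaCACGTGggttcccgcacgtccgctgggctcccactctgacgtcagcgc
The motif of Mxd4 begins 219 bases before the start site and that of Eif4a1 189 bases before it, and Ldha has 2, at 145 and 48 bases. Another Ldha promoter in the table, at a different start site, holds 0 and is not shown. The 3 genes had log2 changes of -2.15, 1.28 and -0.42.

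Genes known as MYC targets changed in both directions. Genes of ribosome biogenesis had a median change above that of all genes, and the number that rose or fell depended on the scaling. Of 40 ribosome biogenesis genes tested, 6 rose, 15 fell and 19 did not pass (median log2 change -0.26), and after median-ratio scaling 29 rose and 0 fell (median 0.83). After quantile scaling 17 rose and 4 fell, and after removal of the length trend 27 and 0. Under all 4 scalings 5 rose and 0 fell. Nolc1, a nucleolar chaperone of small ribonucleoproteins, rose. Nolc1 stood at 633, 669, 584 and 643 CPM in the 4 inhibitor libraries and at 254, 227, 191, 263 and 254 CPM in the 5 no-pyruvate libraries (log2 change 1.42 ± 0.17 (SE), limma adjusted p = 2.1e-07). The groups did not overlap. Ncl, which encodes the nucleolar protein nucleolin, rose to 516 ± 40 CPM from 251 ± 70.7. The level of Pes1, a ribosome assembly factor, fell from 29.5 ± 4.86 to 13.4 ± 1.85 CPM. Polr1a, the largest subunit of RNA polymerase I, was lower, with 11.9 ± 0.628 CPM against 26.5 ± 6.37. The log2 changes of Pes1 and Polr1a were both -0.02 after median-ratio scaling. Of 35 MYC targets outside the nucleolus tested, 5 rose, 22 fell and 8 did not pass (median log2 change -0.96), and after median-ratio scaling 14 rose and 4 fell (median 0.12). After quantile scaling 5 rose and 10 fell, and after removal of the length trend 10 and 5. Apex1, an abasic-site endonuclease, rose to 433 ± 39.3 CPM from 150.5 ± 21.9. The level of Gpi1, a glycolytic isomerase, fell from 94.5 ± 27.4 to 15.5 ± 1.42 CPM. Eif3b, a subunit of a translation initiation complex, was lower, with 36.5 ± 5.88 CPM against 151 ± 44. Cad, the enzyme that opens pyrimidine synthesis, fell to 20.5 ± 0.471 CPM from 66.4 ± 11.6. These 4 held under all scalings. The level of Ccnd1, which encodes cyclin D1, fell from 31.4 ± 15.2 to 8.41 ± 1.5 CPM. Ccnd1 did not pass after median-ratio scaling (-0.62, limma adjusted p = 0.093).

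Genes of cytosolic ribosomal proteins were mostly higher with the inhibitor. Of 79 tested, 59 rose, 4 fell and 16 did not pass (median log2 change 0.85), and after median-ratio scaling 78 rose and 0 fell (median 1.96). Rpl39 stood at 326, 425, 319 and 468 CPM in the 4 inhibitor libraries and at 58.3, 88.4, 85.5, 56.7 and 61.9 CPM in the 5 no-pyruvate libraries (log2 change 2.44 ± 0.22 (SE), limma adjusted p = 4.4e-09). The inhibitor libraries were all above the no-pyruvate libraries. Rpl39 was at 109 CPM in standard morulae, 124 without lactate, 387 at the early 16-cell stage and 318 at the early 32-cell stage. Rps2, of the small subunit, was higher, with 188 ± 23.2 CPM against 41.1 ± 4.55. Rps26, also of the small subunit, rose to 403 ± 48.2 CPM from 109.6 ± 19. The level of Rpl3, of the large subunit, rose from 48 ± 6.44 to 182 ± 28.2 CPM. These held under all scalings. Rpl28, of the large subunit, was lower, with 35.7 ± 0.755 CPM against 54.5 ± 12.7 as deposited. After median-ratio scaling Rpl28 was higher (0.52, limma adjusted p = 0.028). Rpl28 did not pass after quantile scaling (0.35, limma adjusted p = 0.152) or removal of the length trend (0.27, adjusted p = 0.247). Ribosomal protein genes have many processed pseudogenes with near-identical sequence, so reads can be split between copies, and pseudogenes as a class also held a larger share in these libraries. Of translation factors, 32 in all, 12 rose, 5 fell and 15 did not pass (median log2 change 0.05), and after median-ratio scaling 28 rose and 1 fell (median 1.16). After quantile scaling 13 rose and 7 fell, and after removal of the length trend 26 and 1. Eef1a1, the main elongation factor, rose to 1752 ± 185 CPM from 699.8 ± 76.8. The level of Eif4a1, an RNA helicase of initiation, rose from 331 ± 46.9 to 806 ± 115 CPM. Eif1, a start codon fidelity factor, was lower, with 405 ± 27.5 CPM against 807 ± 143 as deposited. The log2 change of Eif1 was 0.13 after median-ratio scaling. Of 20 aminoacyl-tRNA synthetases tested, 2 rose, 9 fell and 9 did not pass (median log2 change -0.56), and after median-ratio scaling 9 rose and 1 fell (median 0.52). After quantile scaling 3 rose and 3 fell, and after removal of the length trend 7 and 2.

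Nucleotide synthesis gave changes in both directions, with the largest rise in Prps1. Prps1 makes phosphoribosyl pyrophosphate, the ribose donor of purine and pyrimidine synthesis. Prps1 stood at 7446, 8484, 7384 and 9557 CPM in the 4 inhibitor libraries and at 1422, 1700.3, 1449, 1783 and 1919 CPM in the 5 no-pyruvate libraries (log2 change 2.31 ± 0.23 (SE), limma adjusted p = 2.1e-08). The groups were far apart, and Prps1 was at 1592 CPM in standard morulae, 1747 without lactate, 2881 at the early 16-cell stage and 1661 at the early 32-cell stage. Hprt, the purine salvage enzyme, rose to 7600.1 ± 788 CPM from 2368 ± 476. The level of Nme2, a nucleoside diphosphate kinase, rose from 116 ± 24.4 to 464 ± 29.6 CPM. Adss, an enzyme of adenine nucleotide synthesis, was lower, with 40.4 ± 8.67 CPM against 151 ± 23.4. These 4 held under all scalings. Of 27 nucleotide synthesis genes tested, 8 rose, 16 fell and 3 did not pass (median log2 change -0.78), and after median-ratio scaling 12 rose and 4 fell (median 0.32). Polyamine synthesis, another known output of MYC, was split. Of 10 polyamine genes tested, 5 rose, 3 fell and 2 did not pass (median log2 change 0.41), and after median-ratio scaling 8 rose and 1 fell (median 1.40). Amd1, which supplies the aminopropyl donor, rose to 541 ± 39.1 CPM from 244 ± 43.7. The level of Azin1, which relieves inhibition of ornithine decarboxylase, rose from 169.5 ± 15 to 369.6 ± 37.1 CPM. Sms, the spermine synthase, was higher, with 327 ± 32.7 CPM against 173 ± 21.3. These 3 held under all scalings. Odc1, ornithine decarboxylase itself, fell to 344 ± 19.4 CPM from 631 ± 102 as deposited. Its log2 change was 0.25 after median-ratio scaling. Of 14 serine and one-carbon genes tested, 1 rose, 12 fell and 1 did not pass (median log2 change -1.15), and after median-ratio scaling 2 rose and 3 fell (median -0.10). After quantile scaling 0 rose and 4 fell, and after removal of the length trend 2 and 2. The level of Sfxn1, the mitochondrial serine carrier, fell from 34.9 ± 9.7 to 6.9 ± 0.685 CPM. This fall held under all scalings. Psat1, a serine synthesis enzyme, was higher, with 1452 ± 43.7 CPM against 898 ± 93.5 as deposited. The call for Psat1 was lost after quantile scaling (log2 change 0.22).

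Among the largest falls were genes that were high in no-pyruvate morulae and low in the other groups at 78 h. Glrx stood at 2.65, 1.81, 1.11 and 1.31 CPM in the 4 inhibitor libraries and at 59.7, 50.3, 58.1, 90.2 and 73.3 CPM in the 5 no-pyruvate libraries (log2 change -4.63 ± 0.30 (SE), limma adjusted p = 5.6e-11). Glrx encodes glutaredoxin, a thiol oxidoreductase, and was at 1 CPM in standard morulae and 2.06 without lactate. Slc40a1, the iron exporter ferroportin, fell to 1.27 ± 0.77 CPM from 42.6 ± 20.4, next to 0.754 in standard morulae. Anxa2 stood at 14.9, 17.2, 16.8 and 16.6 CPM in the 4 inhibitor libraries and at 241, 223, 207, 349 and 365 CPM in the 5 no-pyruvate libraries (log2 change -3.96 ± 0.29 (SE), limma adjusted p = 2.8e-10). Anxa2 encodes a calcium-dependent membrane binding protein and was at 34.3 CPM in standard morulae, 51.5 without lactate, 23.9 at the early 16-cell stage and 122 at the early 32-cell stage. The level of Cd81, a tetraspanin, fell from 119 ± 31.2 to 7.3 ± 2.14 CPM, next to 1.16 in standard morulae. Tfpi, a coagulation inhibitor, was lower, with 0.479 ± 0.257 CPM against 20.7 ± 5.91, next to 0.594 in standard morulae. The inhibitor means of Anxa2 and Tfpi were below those of standard morulae. The same held for further large falls, among them that of Plk3, which was added after its values were seen. Ypel3 fell to 5.58 ± 1.24 CPM from 128 ± 54.8, next to 55.1 in standard morulae. The level of Sap30, a subunit of the SIN3 histone deacetylase complex, fell from 51 ± 4.98 to 1.99 ± 0.761 CPM, next to 29.2 in standard morulae. Cdc123, an assembly factor of translation initiation factor eIF2, was lower, with 4.53 ± 0.634 CPM against 70.9 ± 6.78, next to 26.5 in standard morulae. Plk3, a stress-responsive kinase, fell to 11.8 ± 4.18 CPM from 171 ± 82.9, next to 38 in standard morulae. All of these held under all scalings. A lack of overlap between inhibitor and no-pyruvate libraries was a condition for naming them, which 58.5% of all genes met in this direction.

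Slc2a3, a glucose transporter gene, fell under all scalings, and 17 of 20 glycolysis genes fell as deposited, against 7 of 20 after median-ratio scaling. Slc2a3 stood at 47.7, 30.1, 48.5 and 36.7 CPM in the 4 inhibitor libraries and at 749.6, 304, 142, 961 and 932 CPM in the 5 no-pyruvate libraries (log2 change -3.59 ± 0.50 (SE), limma adjusted p = 2e-06). Slc2a3 encodes GLUT3, a glucose transporter of the embryo's outer cells, and stood at 114 CPM in standard morulae, 215 without lactate, 58.5 at the early 16-cell stage and 276 at the early 32-cell stage. Of 20 glycolysis genes tested, 0 rose, 17 fell and 3 did not pass (median log2 change -1.15), and after median-ratio scaling 2 rose and 7 fell (median -0.20). The level of Pkm, pyruvate kinase, fell from 118 ± 63 to 22.2 ± 1.91 CPM. Pgk1, phosphoglycerate kinase, was lower, with 6.96 ± 1.47 CPM against 32.8 ± 9.6. Both held under all scalings, as did Gpi1. Gapdh, a glycolytic dehydrogenase, fell to 2.43 ± 0.328 CPM from 12.2 ± 5.58. Its many processed pseudogenes can share its reads. The pentose phosphate pathway, which branches from glycolysis to make NADPH and ribose, gave 7 falls of 7, and 3 after median-ratio scaling. The level of Tkt, transketolase, fell from 37 ± 12.9 to 9.21 ± 2.24 CPM. Pgd, a dehydrogenase of the NADPH-making branch, was lower, with 31.1 ± 5.17 CPM against 90.6 ± 5.49 as deposited. Of 6 genes of the hexosamine pathway tested, 1 rose, 3 fell and 2 did not pass (median log2 change -0.54), and after median-ratio scaling 3 rose and 1 fell (median 0.55). Uap1, which makes UDP-N-acetylglucosamine, rose to 882 ± 65.8 CPM from 423 ± 33.3.

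Genes that handle pyruvate and lactate, the metabolites the medium was varied in, gave a median change close to that of all genes. Of 20 genes tested, 0 rose, 13 fell and 7 did not pass (median log2 change -0.95), and after median-ratio scaling 8 rose and 4 fell (median -0.10). After quantile scaling 1 rose and 5 fell, and after removal of the length trend 6 and 4. Ldha stood at 74.1, 65.2, 50.4 and 62.3 CPM in the 4 inhibitor libraries and at 87.3, 94.4, 88.8, 87.9 and 64.6 CPM in the 5 no-pyruvate libraries (log2 change -0.42 ± 0.28 (SE), limma adjusted p = 0.17). Ldha encodes the lactate dehydrogenase subunit that favours conversion of pyruvate to lactate. It did not pass as deposited, and after median-ratio scaling it was higher (0.68, adjusted p = 0.038). Ldha did not pass after quantile scaling (0.32, limma adjusted p = 0.34) or removal of the length trend (0.51, adjusted p = 0.118). Both groups were above standard morulae (11.3 CPM) and morulae without lactate (4.77 CPM), and the inhibitor morulae passed the test against standard morulae (log2 change 2.44, limma adjusted p = 1.4e-07). Mpc1, a subunit of the mitochondrial pyruvate carrier, had 833 ± 72.2 CPM with the inhibitor and 816 ± 185 CPM without it and did not pass. Mpc2, the other carrier subunit, had 349.8 ± 25.5 CPM with the inhibitor and 309 ± 129.8 CPM without it and did not pass. Pdha1, a pyruvate dehydrogenase subunit, had 386 ± 51.3 CPM with the inhibitor and 347 ± 71.7 CPM without it and did not pass. Pdhb, its partner subunit, had 493 ± 47.4 CPM with the inhibitor and 539 ± 59.6 CPM without it and did not pass. All 4 were higher after median-ratio scaling, by 1.17, 1.39, 1.28 and 0.98 on the log2 scale. Slc16a1, a transporter of lactate and pyruvate, was lower, with 26.2 ± 4.3 CPM against 38.1 ± 6.32 as deposited. Slc16a1 was higher after median-ratio scaling (0.56, limma adjusted p = 0.03). It did not pass after quantile scaling (0.46, limma adjusted p = 0.062) or removal of the length trend (0.45, adjusted p = 0.067). Its fall as deposited lost the call without any 1 of 6 libraries (no-pyruvate 1, 4 or 5, inhibitor 2, 3 or 4), with log2 changes of -0.43 to -0.54. Ldhb, the other main lactate dehydrogenase subunit, fell to 7.49 ± 0.832 CPM from 16.4 ± 7.2 as deposited. Falls of 4 genes held under all scalings. The level of Me2, the mitochondrial malic enzyme, which makes pyruvate from malate, fell from 81.9 ± 25.8 to 10.8 ± 2.21 CPM, next to 13.1 in standard morulae. Pdk3, a kinase that inhibits pyruvate dehydrogenase, was lower, with 4.3 ± 1.14 CPM against 26.8 ± 5.02, next to 3.74 in standard morulae. Dlat, the acetyltransferase of the pyruvate dehydrogenase complex, fell to 13.3 ± 1.4 CPM from 57.1 ± 14.3. The level of Pdp1, a phosphatase that activates the complex, fell from 9.34 ± 3.45 to 1.89 ± 0.412 CPM.

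Genes encoded by mitochondrial DNA were higher with the inhibitor, and the counts for nuclear genes of the tricarboxylic acid cycle and respiratory chain depended on the scaling. The list for the cycle also holds cytosolic forms of its enzymes, among them Idh1 and Mdh1, which act outside it. Of its 20 genes tested, 0 rose, 12 fell and 8 did not pass (median log2 change -0.93), and after median-ratio scaling 8 rose and 7 fell (median 0.16). After quantile scaling 4 rose and 8 fell, and after removal of the length trend 6 and 8. Idh1, the cytosolic isocitrate dehydrogenase, was lower, with 88.9 ± 7.44 CPM against 376 ± 16.7. Sucla2, a succinyl-CoA ligase subunit, fell to 123 ± 12 CPM from 473 ± 37.8. The level of Mdh1, the cytosolic malate dehydrogenase of the malate-aspartate shuttle, fell from 55 ± 17.7 to 10.4 ± 2.33 CPM. Sdhb, the iron-sulphur subunit of complex II, was lower, with 45.8 ± 5.36 CPM against 235 ± 23.1. These 4 held under all scalings. Of 13 genes of the malate-aspartate shuttle and amino acid entry tested, 0 rose, 10 fell and 3 did not pass (median log2 change -1.40), and after median-ratio scaling 2 rose and 4 fell (median -0.37). Of 76 nuclear respiratory genes tested, 8 rose, 50 fell and 18 did not pass (median log2 change -0.68), and after median-ratio scaling 35 rose and 9 fell (median 0.41). After quantile scaling 13 rose and 22 fell, and after removal of the length trend 24 and 21. Ndufa6, a complex I subunit, fell to 17.1 ± 1.87 CPM from 72.3 ± 10.5. The level of Ndufv2, another complex I subunit, fell from 204 ± 11.5 to 51 ± 6.28 CPM. Uqcrb, a complex III subunit, was higher, with 279 ± 28.8 CPM against 109 ± 18.4. At the early 16-cell stage the means were 29.9 CPM for Ndufa6, 78.7 CPM for Ndufv2 and 238 CPM for Uqcrb. All 13 protein-coding genes of mitochondrial DNA rose, with a median log2 change of 2.98, and 12 held under all scalings, the exception being mt-Nd2. mt-Nd2, a complex I subunit, rose to 1802 ± 728 CPM from 770.2 ± 682. mt-Co2 stood at 2104, 1972, 1866 and 841 CPM in the 4 inhibitor libraries and at 209, 30.4, 39.6, 165 and 83 CPM in the 5 no-pyruvate libraries (log2 change 4.28 ± 0.49 (SE), limma adjusted p = 1.4e-07). The inhibitor libraries were all higher, with library 4 the lowest of them. The level of mt-Atp8, an ATP synthase subunit, rose from 116 ± 97 to 2948 ± 955 CPM. mt-Cytb, cytochrome b of complex III, was higher, with 18763 ± 6304 CPM against 4222 ± 3509. Mitochondrially encoded genes together held 2.94 to 7.47% of all values with the inhibitor and 0.235 to 2.09% without it (exact two-sided permutation test p = 0.016), next to 1.37 to 8.27% in standard morulae, 5.42 to 8.32% without lactate and 5.02 to 6.42% at the early 16-cell stage. Without library 2 of the no-pyruvate morulae, the call for mt-Nd2 was lost (log2 change 1.21, limma adjusted p = 0.055). Of 18 fatty acid oxidation genes tested, 1 rose, 13 fell and 4 did not pass (median log2 change -1.14), and after median-ratio scaling 5 rose and 4 fell (median -0.11). After quantile scaling 2 rose and 4 fell, and after removal of the length trend 4 and 5. Cpt2, a mitochondrial carnitine palmitoyltransferase, fell to 1.12 ± 0.592 CPM from 23.9 ± 23.6. That mean joins 5.53, 10.9 and 4.21 CPM in no-pyruvate libraries 1 to 3 with 52.7 and 46.2 CPM in 4 and 5. The level of Acadl, a long-chain acyl-CoA dehydrogenase, rose from 127 ± 38.7 to 228 ± 26.7 CPM. Of 22 cholesterol synthesis genes tested, 2 rose, 17 fell and 3 did not pass (median log2 change -1.07), and after median-ratio scaling 4 rose and 4 fell (median -0.07). After quantile scaling 5 rose and 5 fell, and after removal of the length trend 5 and 7. Fdft1, the squalene synthase, was higher, with 673 ± 47 CPM against 262 ± 29.4.

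The p53 target gene Pmaip1 and the unfolded protein response gene Xbp1 fell under all scalings. Pmaip1 stood at 10.3, 5.42, 6.66 and 10.1 CPM in the 4 inhibitor libraries and at 119.99, 76.9, 72.8, 393 and 339.6 CPM in the 5 no-pyruvate libraries (log2 change -4.14 ± 0.51 (SE), limma adjusted p = 3.6e-07). Pmaip1 encodes NOXA, a pro-apoptotic target of p53, and was at 26.5 CPM in standard morulae. Phlda3, a p53 target that restrains AKT, fell to 3.3 ± 1.28 CPM from 28 ± 15.7. The level of Btg2, an antiproliferative p53 target, fell from 51 ± 44.4 to 6.05 ± 0.802 CPM. In no-pyruvate libraries 1 to 3 Phlda3 was at 15.9, 18.1 and 17.4 CPM, and in 4 and 5 at 51.4 and 37.1 CPM. For Btg2 these levels were 24.6, 10.4 and 23.6 CPM, and 111 and 85.4 CPM. Of 17 p53 targets tested, 0 rose, 16 fell and 1 did not pass (median log2 change -1.24), and after median-ratio scaling 3 rose and 6 fell (median -0.17). In the integrated and unfolded protein responses, which ATF4 and XBP1 drive, the RNA of XBP1 fell. Xbp1 stood at 7.63, 9.64, 6.51 and 6.76 CPM in the 4 inhibitor libraries and at 95, 54.1, 75.6, 60.3 and 53.2 CPM in the 5 no-pyruvate libraries (log2 change -2.97 ± 0.30 (SE), limma adjusted p = 2.4e-08). No inhibitor library reached the no-pyruvate range. Edem1, a factor for disposal of misfolded glycoproteins, was lower, with 4.48 ± 1.5 CPM against 51 ± 20.5. Sesn2, a stress-induced regulator of TORC1, fell to 5.73 ± 1.94 CPM from 26 ± 10.5. Of 19 genes tested, 1 rose, 15 fell and 3 did not pass (median log2 change -1.51), and after median-ratio scaling 3 rose and 8 fell (median -0.55). The exception was Dnajb9, a chaperone of the endoplasmic reticulum that XBP1 induces, which rose. Dnajb9 stood at 1606, 1524, 1586 and 1907 CPM in the 4 inhibitor libraries and at 576, 621, 601, 476 and 520.1 CPM in the 5 no-pyruvate libraries (log2 change 1.57 ± 0.21 (SE), limma adjusted p = 9.6e-07). The 4 inhibitor libraries were above the 5 no-pyruvate libraries, and Dnajb9 was at 355 CPM in standard morulae, 429 without lactate, 305 at the early 16-cell stage and 88.5 at the early 32-cell stage. Of 17 oxidative stress and NRF2 genes tested, 1 rose, 14 fell and 2 did not pass (median log2 change -1.59), and after median-ratio scaling 4 rose and 5 fell (median -0.66). The level of Gclm, a subunit of the rate-limiting enzyme of glutathione synthesis, fell from 103 ± 18.4 to 24.7 ± 6.41 CPM. Prdx1, a peroxiredoxin, was lower, with 495 ± 36 CPM against 1762 ± 253. Sqstm1, an autophagy receptor, fell to 71.9 ± 8.92 CPM from 429 ± 298 (294, 207 and 158 CPM in no-pyruvate libraries 1 to 3, 836 and 649 CPM in 4 and 5). The level of Gpx1, a glutathione peroxidase, rose from 437 ± 37.8 to 774 ± 53.4 CPM. The stress genes named here held under all scalings.

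Chaperones and protein turnover were mixed. Of 17 chaperone genes tested, 4 rose, 9 fell and 4 did not pass (median log2 change -0.54), and after median-ratio scaling 10 rose and 2 fell (median 0.57). After quantile scaling 1 rose and 6 fell, and after removal of the length trend 8 and 2. Hsp90aa1, the inducible cytosolic HSP90, was higher, with 4082 ± 51.7 CPM against 1102 ± 368. Dnajb1, an HSP40 co-chaperone, fell to 111 ± 9.05 CPM from 369 ± 33.5. At the early 16-cell stage the means were 7413 CPM for Hsp90aa1 and 96.4 CPM for Dnajb1. Of 31 proteasome genes tested, 3 rose, 15 fell and 13 did not pass (median log2 change -0.44), and after median-ratio scaling 20 rose and 1 fell (median 0.67). After quantile scaling 5 rose and 14 fell, and after removal of the length trend 16 and 1. The catalytic subunits Psmb6 and Psmb7 went opposite ways under all scalings. The level of Psmb6 fell from 1650.4 ± 130.5 to 473 ± 52.2 CPM. Psmb7 was higher, with 483 ± 55.9 CPM against 195 ± 27.6. At the early 16-cell stage the means were 423 CPM for Psmb6 and 441 CPM for Psmb7. Of 24 genes of autophagy and the lysosome tested, 5 rose, 14 fell and 5 did not pass (median log2 change -1.06), and after median-ratio scaling 10 rose and 5 fell (median 0.04). After quantile scaling 4 rose and 7 fell, and after removal of the length trend 9 and 5. Ctsl, the protease cathepsin L, rose to 1086 ± 144 CPM from 274 ± 40. The level of Hexa, a lysosomal hexosaminidase, fell from 174 ± 41.5 to 39.9 ± 11.9 CPM. At the early 16-cell stage the means were 1080 CPM for Ctsl and 88.2 CPM for Hexa.

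Among lineage and epithelial genes, the keratin gene Krt18 and the pluripotency gene Pou5f1 fell under all scalings, while the pluripotency list went both ways. Krt18 stood at 33.3, 21.6, 32.9 and 35.9 CPM in the 4 inhibitor libraries and at 123, 224, 192, 666 and 538 CPM in the 5 no-pyruvate libraries (log2 change -3.19 ± 0.36 (SE), limma adjusted p = 1.2e-07). Krt18, a keratin of the first epithelium, was at 60.8 CPM in standard morulae, 73.8 without lactate, 75.9 at the early 16-cell stage and 435 at the early 32-cell stage. Every inhibitor library lay below each of these means. Of 20 genes of the trophectoderm, the outer lineage that forms the placenta, tested, 0 rose, 13 fell and 7 did not pass (median log2 change -1.24), and after median-ratio scaling 6 rose and 8 fell (median -0.61). After quantile scaling 7 rose and 7 fell, and after removal of the length trend 4 and 7. The 4 members named here had the largest changes of the list at 20 CPM or more in the higher group, and all fell. Against standard morulae 7 members of the list were higher and 11 lower. Gata3, a transcription factor of this lineage, was lower, with 13.1 ± 2.54 CPM against 115 ± 92.7. Its level was 85.9, 35.7 and 31.6 CPM in no-pyruvate libraries 1 to 3 and 242 and 179 CPM in 4 and 5. Fabp3, a fatty acid binding protein, fell to 37.7 ± 6.94 CPM from 299 ± 51.9. The level of Atp1b1, a subunit of the sodium pump that fills the blastocoel, fell from 71.5 ± 11.3 to 11.2 ± 1.89 CPM. Fewer cells of a type and less RNA per cell cannot be told apart in whole-embryo libraries. Pou5f1 stood at 33.3, 26.3, 52.5 and 34.5 CPM in the 4 inhibitor libraries and at 92.6, 169, 167, 127 and 184 CPM in the 5 no-pyruvate libraries (log2 change -1.99 ± 0.21 (SE), limma adjusted p = 5.8e-08). Pou5f1 encodes OCT4, the pluripotency factor. It was at 212 CPM in standard morulae, 111 without lactate, 149 at the early 16-cell stage and 169 at the early 32-cell stage, all above the inhibitor libraries' mean, and it fell against standard morulae too (log2 change -2.52, limma adjusted p = 1.8e-09). Utf1, another gene of pluripotent cells, was lower, with 19.7 ± 1.6 CPM against 68.2 ± 14.8. Dppa3, a maternal and germ cell factor also called STELLA, rose to 6447 ± 541 CPM from 1719.7 ± 835. Dppa3 was at 6932 CPM at the early 16-cell stage and 8360 CPM at the early 32-cell stage. Of 20 pluripotency genes tested, 1 rose, 9 fell and 10 did not pass (median log2 change -0.52), and after median-ratio scaling 8 rose and 4 fell (median 0.41). After quantile scaling 5 rose and 4 fell, and after removal of the length trend 7 and 4. Under all 4 scalings 1 rose and 2 fell. Of 13 primitive endoderm genes tested, 0 rose, 11 fell and 2 did not pass (median log2 change -1.11), and after median-ratio scaling 1 rose and 5 fell (median -0.43). The level of Lrp2, an endocytic receptor, fell from 64.4 ± 51.6 to 7.29 ± 0.951 CPM. No-pyruvate libraries 1 to 3 had 27, 31 and 25.9 CPM of Lrp2, and 4 and 5 had 138 and 100 CPM. Gata6, a transcription factor of the lineage, was lower, with 25.2 ± 2.73 CPM against 58.9 ± 2.47 as deposited, and lost the call under the other scalings. Of 21 genes of compaction and junctions tested, 0 rose, 18 fell and 3 did not pass (median log2 change -1.25), and after median-ratio scaling 4 rose and 6 fell (median -0.18). Myh9, a non-muscle myosin heavy chain, fell to 2.26 ± 0.936 CPM from 26.1 ± 18.8. The level of Jup, the junction protein plakoglobin, fell from 51 ± 20.7 to 7.58 ± 0.678 CPM. Both held under all scalings. Actb, a gene often used as a reference, was lower, with 1024 ± 123 CPM against 1992 ± 282 as deposited. Its log2 change was 0.16 after median-ratio scaling. Ppia, another reference gene, rose to 1342 ± 61.4 CPM from 694 ± 121. The level of H3f3a, a histone gene used in the same way, rose from 194 ± 42.8 to 707 ± 79.3 CPM.

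Of replication and mitosis genes, 22 of 34 and 16 of 28 fell as deposited, no more than the share of all genes (67.1%) or of protein-coding genes (74.1%). Of 34 replication genes tested, 0 rose, 22 fell and 12 did not pass (median log2 change -1.14), and after median-ratio scaling 11 rose and 4 fell (median -0.06). After quantile scaling 3 rose and 10 fell, and after removal of the length trend 8 and 9. Gins2, of the replicative helicase, was lower, with 4.21 ± 0.806 CPM against 22.4 ± 2.3. Rpa3, of the single-strand binding complex, fell to 8.16 ± 2.14 CPM from 34 ± 10.2. Both held under all scalings. The level of Mcm2, also of the helicase, fell from 104 ± 44.1 to 24.3 ± 3.18 CPM as deposited. Mcm2 had a mean of 678 CPM in standard morulae and did not pass after median-ratio scaling (-0.86, limma adjusted p = 0.19). Of 28 mitosis genes tested, 4 rose, 16 fell and 8 did not pass (median log2 change -0.70), and after median-ratio scaling 12 rose and 3 fell (median 0.41). After quantile scaling 6 rose and 7 fell, and after removal of the length trend 10 and 3. Plk1, a mitotic kinase, was lower, with 62.5 ± 11 CPM against 290.1 ± 35.3. Bub3, of the spindle checkpoint, fell to 109 ± 4.06 CPM from 482 ± 62.6. The level of Ube2c, a ubiquitin-conjugating enzyme of the anaphase-promoting complex, rose from 543 ± 142 to 1077 ± 126 CPM. Among chromatin genes the histone deacetylase Hdac2 fell most. Hdac2 stood at 11.9, 13.6, 25.6 and 11.3 CPM in the 4 inhibitor libraries and at 134, 108, 56.9, 288 and 270.1 CPM in the 5 no-pyruvate libraries (log2 change -3.21 ± 0.34 (SE), limma adjusted p = 4.1e-08). It was at 161 CPM in standard morulae, 113 without lactate, 78.1 at the early 16-cell stage and 134 at the early 32-cell stage, all above the inhibitor range. Tet2, a methylcytosine dioxygenase, was lower, with 5.44 ± 0.593 CPM against 34.5 ± 13.5. Dnmt3l, a cofactor of DNA methylation, fell to 9.98 ± 0.826 CPM from 41.2 ± 9.41. These held under all scalings. Of 21 chromatin genes tested, 1 rose, 17 fell and 3 did not pass (median log2 change -1.20), and after median-ratio scaling 4 rose and 5 fell (median -0.24). Of 14 imprinted genes tested, 0 rose, 12 fell and 2 did not pass (median log2 change -1.35), and after median-ratio scaling 2 rose and 6 fell (median -0.66). The level of Mest, a paternally expressed gene, fell from 41.2 ± 19.2 to 3.37 ± 1.04 CPM, next to 1.69 in standard morulae. Slc38a4, an amino acid transporter, was lower, with 4.16 ± 0.653 CPM against 29.3 ± 15.5.

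Of the 10 largest rises among genes with a name, 5 were those of mitochondrially encoded genes. Nuclear protein-coding genes with the largest rises, picked for naming after their values were seen, included a set with higher means in inhibitor morulae than in any of the 5 groups set beside them. Cdk2ap1 stood at 1885, 1909, 1411 and 1803 CPM in the 4 inhibitor libraries and at 158, 169, 161, 182 and 188 CPM in the 5 no-pyruvate libraries (log2 change 3.34 ± 0.14 (SE), limma adjusted p = 3.7e-13). Cdk2ap1 encodes an inhibitor of the kinase CDK2 and was at 159.7 CPM in standard morulae, 243 without lactate, 804 at the early 16-cell stage and 409 at the early 32-cell stage. It lies on chromosome 5, 124345417 to 124363082 (GRCm38). Wsb1, a substrate receptor of a ubiquitin ligase, rose to 3542 ± 180.3 CPM from 508 ± 52.8. Wsb1 was at 582 CPM in standard morulae, 702 without lactate, 1121 at the early 16-cell stage and 327 at the early 32-cell stage. The level of Spic, an ETS-family transcription factor, rose from 286 ± 51.7 to 2070.0 ± 187 CPM. Spic was at 667 CPM in standard morulae, 788 without lactate, 659 at the early 16-cell stage and 205 at the early 32-cell stage. For these 3 the lowest inhibitor library was above the highest no-pyruvate library, which was a condition for naming them and was met by 7.54% of all genes in this direction. Further large rises were those of the Trim43 family, Mt2 and Olfr77. Trim43b stood at 5405, 5074, 5785 and 5252 CPM in the 4 inhibitor libraries and at 373, 391, 348, 678 and 677 CPM in the 5 no-pyruvate libraries (log2 change 3.51 ± 0.22 (SE), limma adjusted p = 3.3e-11). Trim43b belongs to a family of tripartite-motif genes known from early embryos, and its mean was 3798 CPM at the early 16-cell stage. Trim43a, a close copy, was higher, with 4706 ± 238 CPM against 428 ± 169.6. Trim43c, another copy, rose to 593 ± 98.9 CPM from 29.3 ± 10.9. Reads may be shared between these copies. The level of Mt2, a metallothionein, rose from 133 ± 23.9 to 1009 ± 188 CPM. Olfr77, annotated as an olfactory receptor, was higher, with 107 ± 17.9 CPM against 6.38 ± 3.78.

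**Figure D4:**
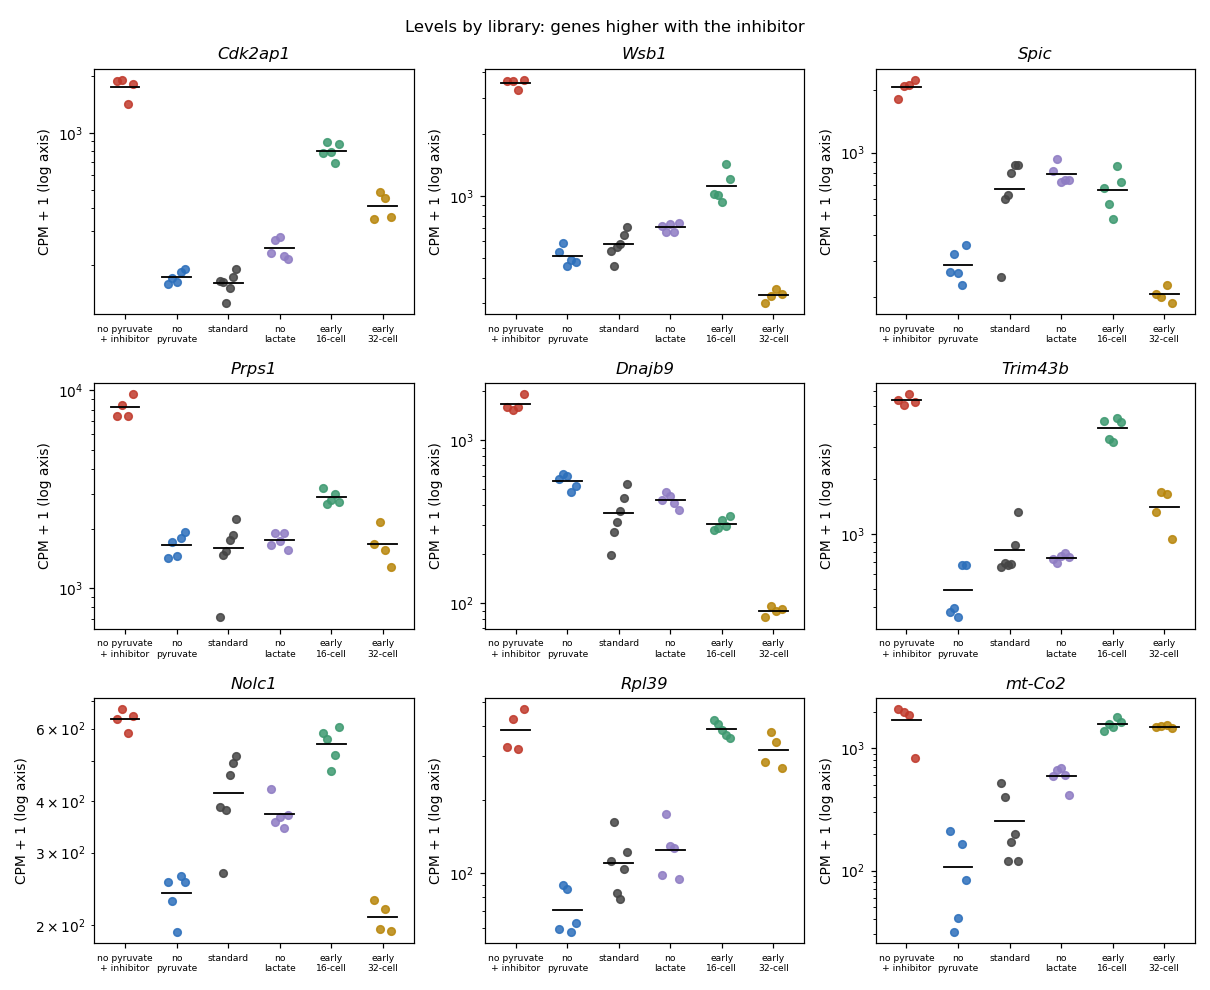
CPM + 1 on a log axis for 9 genes that rose with the inhibitor, with points for libraries and lines for group means. For Cdk2ap1, Wsb1, Spic, Prps1 and Dnajb9 the inhibitor mean is above all 5 other groups, while Rpl39 and mt-Co2 are near the early 16-cell and 32-cell means.

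Of transcripts known from the 2-cell stage, 17 of 26 fell as deposited, close to the share of all genes (67.1%) and below that of protein-coding genes (74.1%). Of 26 2-cell transcripts tested, 3 rose, 17 fell and 6 did not pass (median log2 change -1.42), and after median-ratio scaling 3 rose and 6 fell (median -0.69). Without no-pyruvate libraries 4 and 5, 3 of this list rose and 8 fell, and without 1 to 3, 2 rose and 22 fell. Zfp54, a zinc finger gene, fell to 2.91 ± 0.0752 CPM from 36.9 ± 4.43. The level of Sp110, a nuclear body protein, rose from 272 ± 33 to 1076 ± 117 CPM. Both held under all scalings. Zscan4f, a marker of the 2-cell-like state, ranged widely. Zscan4f stood at 9.73, 25.9, 0.716 and 0.503 CPM in the 4 inhibitor libraries and at 62.5, 0.179, 39.6, 141 and 46.5 CPM in the 5 no-pyruvate libraries (log2 change -2.47 ± 1.04 (SE), limma adjusted p = 0.037). The groups overlapped. The call was lost without any 1 of 6 libraries (inhibitor 3 or 4, no-pyruvate 1, 3, 4 or 5), with log2 changes of -1.87 to -2.35, and under each other scaling. Of 32 maternal transcripts tested, 2 rose, 12 fell and 18 did not pass (median log2 change -0.32), and after median-ratio scaling 6 rose and 6 fell (median 0.25). After quantile scaling 6 rose and 5 fell, and after removal of the length trend 8 and 6.

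To set each library against normal development, a stage position was computed along the line running from early 8-cell (mean 0) to early 32-cell embryos (mean 1), over 6691 genes whose means in those stages are at least 1 apart on the log2(CPM + 1) scale. Inhibitor libraries lay at 0.70, 0.68, 0.67 and 0.69 and no-pyruvate libraries at 0.20, 0.29, 0.26, 0.49 and 0.56. The groups did not overlap, the inhibitor libraries were close together, and no-pyruvate libraries 4 and 5 were higher than 1 to 3. Makeup differs along this line as well: annotated pseudogenes held 8.47 to 9.46% in early 8-cell and 15.4 to 16.5% in early 32-cell libraries, next to 15.2 to 15.9% in inhibitor and 8.66 to 10.8% in no-pyruvate libraries. Genes annotated as ribosomal RNA held at most 0.00429% in early 8-cell and 0.0866 to 0.224% in early 32-cell libraries. Between standard morulae (78 h) and early 16-cell embryos (80 h), both in standard medium, makeup differed too. Pseudogenes held 9.2 to 11.6% and 14.7 to 15.4%, and ribosomal RNA genes at most 0.0753% and 0.328 to 0.796%. In morulae without lactate these shares were 9.15 to 9.94% and 0.0267 to 0.0814%. The part of this makeup in the stage position was not tested. The means differed by 0.32 (exact two-sided permutation test p = 0.016, adjusted p = 0.016 over 3 tests). Standard morulae lay at 0.29 to 0.43, morulae without lactate at 0.22 to 0.25 and early 16-cell embryos at 0.73 to 0.80. The difference was 0.20 after median-ratio scaling (p = 0.063, exact permutation test) and 0.17 after quantile scaling (p = 0.22, exact permutation test), which do not pass, so the call depends on the scaling. It was 0.44 without no-pyruvate libraries 4 and 5 and 0.16 without 1 to 3, sizes too small for the exact permutation test to pass (p = 0.057 and 0.13, the smallest possible).

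**Figure D5:**
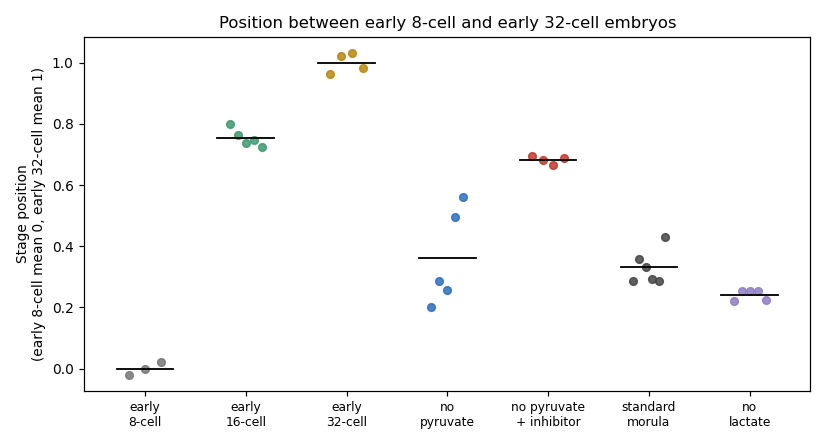
Stage position of each library (early 8-cell mean 0, early 32-cell mean 1, as deposited), with points for libraries and lines for group means. Inhibitor libraries lie at 0.67 to 0.70, below the early 16-cell libraries and above the libraries of the other 3 morula groups.

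Against standard morulae, from which inhibitor morulae differ by both pyruvate and the compound, 9517 of 16031 genes passed (59.4%, limma with Benjamini-Hochberg adjustment), 1959 higher (12.2%) and 7558 lower (47.1%), and after median-ratio scaling 4320 were higher (26.9%) and 3513 lower (21.9%). The inhibitor libraries are shared with the comparison above. Side by side, ribosome biogenesis genes gave 5 rises and 22 falls of 40 against standard morulae, ribosomal protein genes 41 and 9 of 79, mitochondrially encoded genes 8 and 0 of 13, and the MYC and MAX network 0 and 8 of 13. Max was lower than in standard morulae (-1.56, adjusted p = 1.1e-05) and Myc did not pass (0.09, adjusted p = 0.84). Some genes that fell from a high no-pyruvate level did not pass against standard morulae, among them Glrx (0.47, adjusted p = 0.16), Prdx1 (0.15, adjusted p = 0.41), Me2 (0.00, adjusted p = 1) and Btg2 (0.18, adjusted p = 0.72), which does not show that the levels were equal. Cd81 stayed above standard morulae (1.95, adjusted p = 8.7e-07).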

How the data were processed

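The deposited table gives CPM (read counts scaled to a common library total) for 37394 entries, to which the authors had added an offset of 0.0001, as read from the values. Alignment used STAR 2.6.1d and the genome build mm10, per the submitters' processing notes, and the counting tool and annotation are not given in the sources used here. Of 91 columns, 85 were matched to samples by their descriptions and 6 were not used. Entries named by a number only (26, holding 0.0593 to 0.1625% of values in the 9 libraries) and 1 entry with a missing value were left out of the tests. Between 72.3 and 75.0% of low values were within 0.1 of a whole number of reads, so reads were not recovered and no count test was run. Depth here is inferred from the step between low values.

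Genes above 1 CPM in at least 3 of the 20 libraries of the 4 morula groups at 78 h (16031 genes) were fitted with limma 3.58.1 (R 4.3.3) on log2(CPM + 1) with a mean trend, and p-values were adjusted by Benjamini-Hochberg at 0.05. Fold changes are on that scale, which understates changes of low genes. Single values were compared by exact permutation tests (scipy 1.17.1). On simulated data for the main comparison, with the spread set to the median squared coefficient of variation of the real libraries (0.01 to 0.071 by group, genes above 20 CPM), 96 of 100 genes changed 2-fold and 100 of 100 changed 4-fold were recovered with 1 false call among 15627 genes. With a larger spread of 0.15, tried first and set by choice, 14 of 100 and 92 of 100 were recovered with 2 false calls among 15986 genes. The smaller spread was chosen after that first result and understates the noise of low and variable genes, so 2-fold changes of such genes can be missed. At either spread 100 genes were changed at each fold, while 12138 of 16031 genes (75.7%) passed in the real comparison. The number of false calls where library makeup differs as it does between the real libraries was not tested.

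The members, the 38 gene lists and the tests were chosen with earlier results of these data known. The fixed rule named the 10 largest rises and falls without overlap between groups and at least 20 CPM in the higher group (gene models without a name counted but not printed), the MYC and MAX network, the pyruvate and mitochondrially encoded lists, up to 4 members with the largest changes of each other list with at least 3 calls plus the largest opposite call, and 4 reference genes. The text prints a selection of these, and adds the nuclear protein-coding genes with the largest rises and Plk3 after their values were seen. Gene positions and types come from GENCODE vM21, matched for 36809 of 37368 symbols, and promoters from RefSeq GRCm38.p6, matched for 10301 of the 16031 genes tested. A few genes that the rule gives are not reported here.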

Additional observations from a re-analysis of the deposited data

Results flagged for a closer look

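In each group, the highest and lowest library was tested for distance from the rest (Dixon's ratio, 276 groups of values, of which chance alone passes about 1 in 20), and 16 passed. In inhibitor library 4, Amd1 was low at 482.8 CPM against 554.8 to 565.1 CPM in the other libraries of the group. The same library was high for Odc1 (372.6 CPM against 331.6 to 337.8), Mpc1 (940.3 CPM against 789.1 to 812.2), Fdft1 (742.8 CPM against 643.4 to 653.4), Psmb6 (550.2 CPM against 441.1 to 458.7) and H3f3a (825.1 CPM against 659.5 to 682.1). Inhibitor library 3 was high for Pgd (38.79 CPM against 27.83 to 29.32) and Hdac2 (25.58 CPM against 11.26 to 13.63) and low for Wsb1 (3275 CPM against 3606 to 3671). Inhibitor library 2 was high for Sucla2 (140.6 CPM against 115.3 to 118.3). Inhibitor library 1 was low for Hsp90aa1 (4006 CPM against 4103 to 4117). Among the no-pyruvate libraries, library 5 was low for Mxd4 (6.3 CPM against 9.367 to 10.6) and Ldha (64.62 CPM against 87.35 to 94.43) and high for Olfr77 (12.91 CPM against 3.715 to 6.372). The 100 highest genes of that library held 23.76% of all values, against 21.05 to 21.71% in the other 4. No-pyruvate library 1 was high for Pdp1 (15.29 CPM against 6.705 to 9.156).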

How the results depend on the processing

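The counts of genes called depend on the scaling, and the cause was not tested. For inhibitor against no-pyruvate morulae, 7915 genes passed after median-ratio scaling (3786 higher, 4129 lower), 7054 after quantile scaling (3245 and 3809) and 7356 after removal of the length trend (3542 and 3814). Without a filter on low values 2194 were higher, as more genes were tested. Leaving out 1 library at a time gave 1217 to 1431 higher and 10158 to 10658 lower. Against standard morulae, 4320 were higher and 3513 lower after median-ratio scaling, 3550 and 4090 after quantile scaling and 4052 and 3751 after removal of the length trend. The pseudocount, a fit of only the groups compared and leaving out standard libraries 1 and 2 kept both counts within 1.5 times. The difference in stage position was 0.1975 after median-ratio and 0.1665 after quantile scaling, and, chosen after seeing the data, 0.435 without no-pyruvate libraries 4 and 5 and 0.1561 without 1 to 3, where 4 against 3 or 2 libraries cannot pass. With 1 library left out it was 0.2839 to 0.3734.

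Of 135 genes given by name, median-ratio scaling turned the sign of 10 and ended the call of a further 10, quantile scaling 9 and 10, and removal of the length trend 8 and 12, all on the log2 scale below. After median-ratio scaling the changes that turned were those of Mycn (0.0188), Mlxip (0.29), Rpl28 (0.52), Eif1 (0.13), Odc1 (0.25), Ldha (0.68), Ldhb (0.0749), Pdhb (0.98), Slc16a1 (0.56) and Actb (0.16). After quantile scaling they were Mycn (0.16), Mlxip (0.47), Pes1 (0.0233), Polr1a (0.0363), Rpl28 (0.35), Ldha (0.32), Ldhb (0.22), Mpc1 (-0.21) and Slc16a1 (0.46). After removal of the length trend they were Mycn (0.36), Mycl (0.0195), Mlxip (0.25), Rpl28 (0.27), Odc1 (0.0736), Ldha (0.51), Pdhb (0.84) and Slc16a1 (0.45). Rescaled to nuclear protein-coding genes, Pdhb was at 0.13. Without no-pyruvate libraries 4 and 5, Myc (-0.0326), Mga (-0.0275), Mpc1 (-0.15) and Mpc2 (-0.16) turned, and without 1 to 3, Mlxip (0.0092) and Pdha1 (-0.11). Without no-pyruvate library 5 Mga was at -0.0039, and Mpc1 was at -0.0554 without no-pyruvate library 4 and -0.0035 without inhibitor library 4. Without no-pyruvate libraries 1 to 3 or 4 and 5, counts of some lists moved by over 1.5 times, as given for 2-cell transcripts.

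Replicate numbers do not pair the libraries, with correlations of deviations of 0.01744, -0.2137, -0.1343 and -0.1843 between libraries of the same number. With the replicate number as a block, 1410 genes were higher and 10261 lower (1417 and 10499 without the block in the same 2 groups), and Mga was at -0.0039. Against standard morulae the block gave 1656 higher and 6545 lower. Inhibitor libraries were shallower than no-pyruvate libraries, so a low value in them is less precise, and no interval can be given for CPM without counts.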
